A study of Mus musculus with 6 samples.

Results

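PGC-1 coactivators and the factors they work with were examined in the gastrocnemius of tumour-bearing mice, as 10 genes matched by name among 55995 features of a gene TPM table. The 10 were the coactivator genes Ppargc1a and Ppargc1b, the nuclear receptor genes Esrra, Esrrg, Ppara and Ppard, the respiratory gene regulator Nrf1, the mitochondrial DNA factor Tfam, and the membrane fusion genes Mfn2 and Opa1. Each was found once, and 8 of them reached the mean of 1 TPM over the 6 libraries that was required for testing, among 11938 features that did. Esrrg and Ppara did not reach it and are described by their values.

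The mice were of the NSG strain (NOD/SCID/IL2Rγ-null), which lacks mature T, B and NK cells, and all of them, controls included, bore a subcutaneous tumour on the left flank grown from WT MDA-MB-231 cells, a human breast cancer line. In the radiotherapy group (libraries RT1, RT2 and RT3) the tumour alone was irradiated once it had grown to about 800 mm3, with 10 Gy in 1 session (6 MV beam, 6 Gy/min), and after 3 days the gastrocnemius opposite the tumour was collected. The control group (CT1, CT2 and CT3) is labelled only as control, with no tumour volume, day of collection, age or sex given, so these cannot be told apart from irradiation. Each group held 3 libraries, and the labels do not say that each came from its own mouse, so a p-value here measures spread that may be only technical. The question is how these genes differ in a muscle that the beam did not reach.

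PGC-1 coactivators do not bind DNA themselves. They dock on receptors such as the estrogen-related receptors (ERRs) and the PPARs, and on NRF1, and raise transcription of genes for respiration and fat oxidation. NRF1 acts on nuclear genes of the respiratory chain and on Tfam, whose protein enters mitochondria, packages their DNA and starts its transcription. MFN2 joins the outer membranes of mitochondria and OPA1 joins the inner membranes and shapes the cristae. In muscle, PGC-1α is known for its induction by exercise and cold and for its higher level in slow, oxidative fibres.

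Before the single genes, some properties of the libraries bear on every value. TPM adds to the same total in each library, and the 20 most abundant features took 50.5% and 52.1% of it in RT1 and RT2, while the controls had 33.0% to 42.6% and RT3 30.3%. The median TPM of the tested features was 4.59 and 4.26 in those 2 libraries and 6.81 to 8.33 in the other 4, and 78.5% of the tested features had a negative log2 change, with a median of -0.36. Median-of-ratios scaling moved that median to -0.02. The radiotherapy libraries also differed among themselves. Trim63, a muscle ubiquitin ligase gene, was at 1462 TPM in RT3 and at 68.8 and 122 TPM in RT1 and RT2, on either side of the controls at 598 to 901 TPM. RT3 had 6 neutrophil markers summing to 2925 TPM against 10.5 and 18.4 TPM in RT1 and RT2 and 72.8 to 183 TPM in the controls. The labelled tissue was checked by its fast-fibre markers, which were abundant in every library, 11 genes summing to 139700 to 162200 TPM in the controls and at 122300 to 213300 TPM after radiotherapy. Slow-fibre markers were not even: the mean log2(TPM + 1) of 10 of them was 3.89 in CT2 and 5.58 in RT3, and 6.89 to 7.50 in the other 4 libraries. Other cell types were seen at lower levels. The summed TPM in control and radiotherapy libraries was 54.6 to 432 and 172 to 327 for 7 adipocyte markers, 8.23 to 18.7 and 8.80 to 54.8 for 6 tendon markers, 112 to 177 and 95.3 to 155 for 6 fibroblast markers, and 69.7 to 81.3 and 49.4 to 156 for 6 endothelial markers. Dcn carried most of the fibroblast sum. The collagen genes Col1a1 (1.35 to 2.05 and 3.00 to 14.0 TPM) and Col3a1 (3.39 to 4.18 and 8.27 to 19.9 TPM) lay higher in all 3 radiotherapy libraries, beside 1.73% of all features. Their limma adjusted p was 0.294 and 0.238. The other fibroblast markers, Dcn, Pdgfra, Lum and Dpt, overlapped between the groups, with log2 changes of -0.49, 0.17, 0.20 and 0.12. The sum was 9.16 to 33.7 and 10.8 to 134 for 6 macrophage markers, highest in RT3, where Cd68 alone was at 121 TPM. Csf1r was also highest in RT3, at 5.96 TPM, while Mrc1, Adgre1, Cd163 and Fcgr1 lay there within their control ranges. For 6 Schwann cell markers the sum was 22.1 to 133 and 23.7 to 187, low in CT2 and RT3. Ucp1, which defines brown fat, a tissue rich in PGC-1α, was at 0 to 0.19 TPM. The part of these cells in the results was not tested. In bulk muscle, fewer cells of a type and less RNA per cell cannot be told apart.

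The start regions of Tfam, Opa1 and Mfn2 are shown because these 3 were the genes of the set whose radiotherapy libraries all lay below every control library. Each runs from 250 bases before to 50 bases after a RefSeq start on GRCm38.p6, on the gene's own strand, which is minus for Tfam and Mfn2 and plus for Opa1. They lie at chr10:71237995-71238294 (Tfam), chr16:29579084-29579383 (Opa1) and chr4:147904860-147905159 (Mfn2, the first of 3 listed starts). Capitals mark a match to the NRF1 motif.
Tfam: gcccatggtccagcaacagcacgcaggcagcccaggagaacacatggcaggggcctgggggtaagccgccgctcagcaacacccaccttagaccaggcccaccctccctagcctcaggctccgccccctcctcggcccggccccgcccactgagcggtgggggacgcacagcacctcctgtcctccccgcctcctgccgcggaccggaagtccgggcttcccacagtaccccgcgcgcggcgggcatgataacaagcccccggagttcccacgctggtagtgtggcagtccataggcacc
Opa1: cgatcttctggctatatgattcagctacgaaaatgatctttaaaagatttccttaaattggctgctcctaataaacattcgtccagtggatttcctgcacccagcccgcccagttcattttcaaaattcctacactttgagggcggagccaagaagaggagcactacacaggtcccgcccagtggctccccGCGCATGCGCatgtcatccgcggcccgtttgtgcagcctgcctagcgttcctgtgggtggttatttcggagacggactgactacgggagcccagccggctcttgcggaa
Mfn2: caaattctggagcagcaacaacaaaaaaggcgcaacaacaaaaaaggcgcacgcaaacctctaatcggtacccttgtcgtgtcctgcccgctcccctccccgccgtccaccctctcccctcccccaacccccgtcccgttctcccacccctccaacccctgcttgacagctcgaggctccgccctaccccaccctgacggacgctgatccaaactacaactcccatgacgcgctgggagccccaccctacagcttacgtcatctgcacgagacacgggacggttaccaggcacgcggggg

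Start regions were listed for 9 of the 10 genes, 15 regions in all, and 3 motifs were searched in them on both strands. These were GCGCATGCGC with any base in the fifth place for NRF1, TNAAGGTCA for the ERRs and TGACGTCA for the cyclic AMP response element that CREB binds. The NRF1 letters were found in Opa1, from 59 to 50 bases before the start, and in Ppara, from 31 to 22 bases before it, both as GCGCATGCGC, which reads the same on both strands. Of all 32851 listed regions of this length, 4.60% hold the NRF1 letters, 1.28% the ERR letters and 1.79% the cyclic AMP letters. The other 13 regions, those of Tfam and Mfn2 included, held none of the 3. The Tfam region shown is 70.3% G and C, against a median of 52.7% over all listed regions, the Mfn2 region 62.3% and the Opa1 region 53.3%.

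Ppargc1a, the inducible coactivator gene, lay low in all 3 radiotherapy libraries and was uneven in control. It was at 3.81, 1.10 and 5.68 TPM in CT1, CT2 and CT3 and at 0.89, 1.10 and 0.79 TPM in RT1, RT2 and RT3. As deposited, the radiotherapy values were close together, and the groups met at 1.10 TPM through CT2. The means were 3.53 ± 2.30 and 0.927 ± 0.158 TPM (SD, n = 3 per group), so Ppargc1a passed the filter on low values only through the controls. Its log2 change was -1.08 (SE 0.44), with an adjusted p of 0.336 by limma, so it did not pass the threshold of 0.05. CT2 was the only control library that met the radiotherapy values, so leaving it out removes the overlap by construction. Without CT2 the log2 change was -1.56, with a limma adjusted p of 0.302. With median-of-ratios scaling the values were 2.85, 1.03 and 5.11 against 1.14, 1.51 and 0.69. CT2 then lay below RT1 and RT2, and the log2 change was -0.80. Without RT3 the log2 change was -1.03.

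Ppargc1b, the paralogue that shares many of its targets, did not follow it. Its levels were 1.73, 0.56 and 1.38 TPM in the controls and at 1.52, 1.53 and 0.64 TPM after radiotherapy, in replicate order. CT2 and RT3 were the low libraries, and the other 4 lay within 1.38 to 1.73 TPM. The log2 change was 0.01 (SE 0.34, limma adjusted p = 0.986), and its sign turned with the library left out. The ratio of Ppargc1a to Ppargc1b is unchanged when a library is multiplied by a common factor. It was 2.20, 1.96 and 4.12 in the control libraries and 0.585, 0.719 and 1.23 in the radiotherapy libraries. These ratios did not overlap, in a comparison chosen after the values were seen. Ppargc1b in all libraries, and Ppargc1a in CT2 and the radiotherapy libraries, had low TPM, and without read counts the error of their ratio is unknown. This ratio was 1 of 5 computed, of which 3 overlapped between the groups. At 3 against 3 libraries the smallest p that an exact permutation test allows is 0.1.

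**Figure D1:**
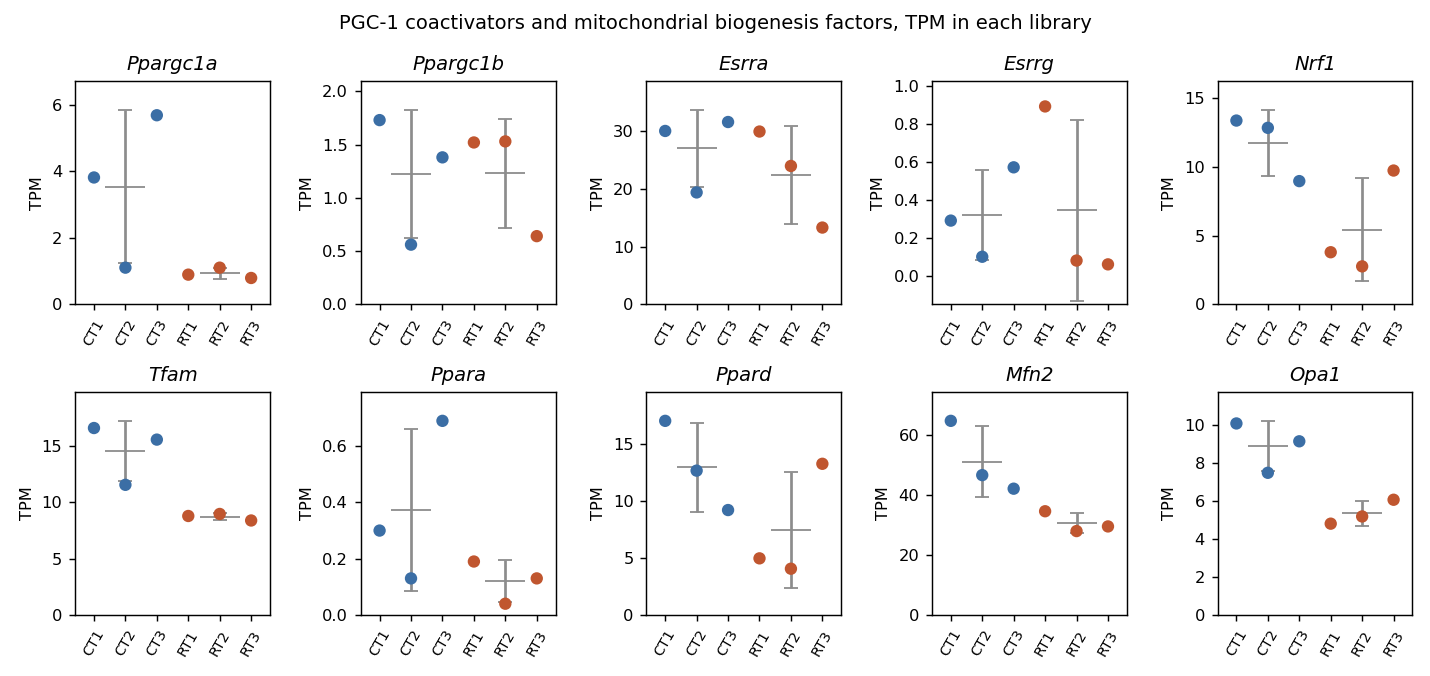
TPM of the 10 genes in control (CT, blue) and radiotherapy (RT, orange) libraries 1 to 3, with grey bars for the group mean and SD and an axis of its own for each gene. Tfam, Mfn2 and Opa1 lie lower in every radiotherapy library than in any control library, Nrf1 and Ppard are low in RT1 and RT2 and not in RT3, and Ppargc1b and Esrra are lowest in CT2 and RT3.

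Esrra, which encodes ERRα and is the more abundant ERR gene here, was at 30.1, 19.4 and 31.6 TPM in the controls and at 30.0, 24.0 and 13.3 TPM after radiotherapy. Like Ppargc1b it was low in CT2 and RT3, and the groups overlapped over most of their range. Its log2 change was -0.30 (SE 0.38, limma adjusted p = 0.691) as deposited, 0.12 with median-of-ratios scaling and 0.020 without RT3. The same pair of libraries held the lowest mean of the slow-fibre markers. Myh7, the slow myosin heavy chain, was at 8.61 TPM in CT2 and 32.6 TPM in RT3 against 177 to 362 TPM in the other 4. Csrp3 of the same marker list went the other way in RT3, at 1019 TPM against 54.1 to 250 TPM in the rest. CT2 and RT3 also held the lowest shares of transcripts from the mitochondrial genome, 7.07% and 8.57% of TPM against 11.8% to 14.8%. Ppargc1a was at or under 1.10 TPM in CT2, RT1, RT2 and RT3, where the slow-fibre mean was 3.89, 6.89, 7.47 and 5.58. The part of fibre makeup in the levels of Ppargc1a, Ppargc1b and Esrra was not tested.

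Esrrg, the ERR gene of oxidative fibres, was listed below 1 TPM in every library, at 0.29, 0.10 and 0.57 TPM in the controls and at 0.89, 0.08 and 0.06 TPM after radiotherapy. The highest and lowest values were both in the radiotherapy group. With no filter on low values its log2 change was -0.01 (SE 0.26), which is compressed by the pseudocount of 1.

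**Figure D2:**
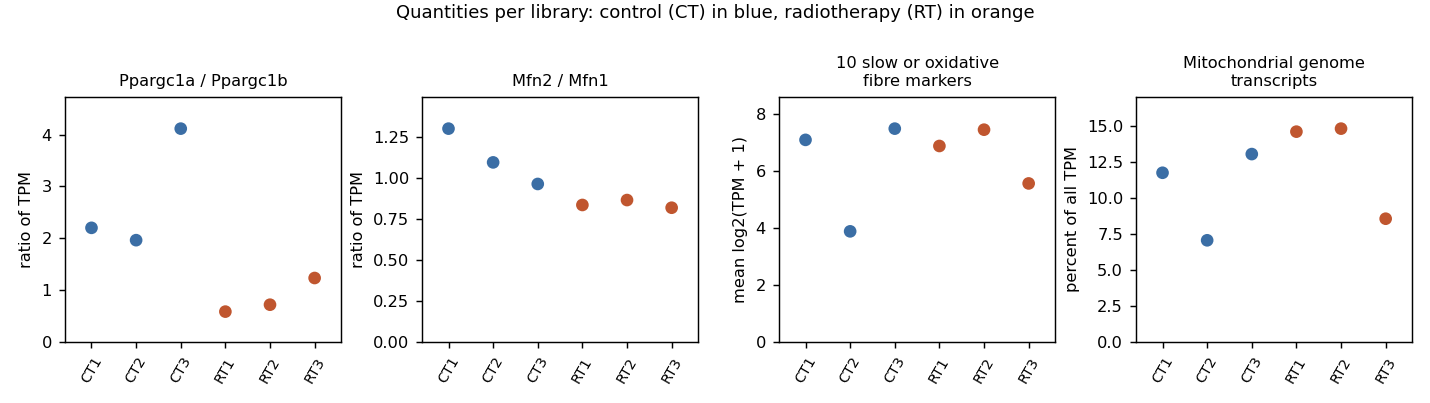
Ratios of TPM, mean log2(TPM + 1) of 10 slow or oxidative fibre markers, and percent of TPM from the mitochondrial genome in each control (CT, blue) and radiotherapy (RT, orange) library. The ratios shown, Ppargc1a to Ppargc1b and Mfn2 to Mfn1, are 2 of 5 computed and lie lower in every radiotherapy library than in any control library, while the fibre markers and the mitochondrial share are lowest in CT2 and RT3.

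Ppard and Ppara encode receptors that sense fatty acids and switch on fat oxidation. Ppard was at 17.0, 12.7 and 9.21 TPM in the controls and at 4.97, 4.06 and 13.3 TPM in RT1, RT2 and RT3. Replicates 1 and 2 lay below every control library, and replicate 3 lay inside the control range. The log2 change was -0.85 (SE 0.45, limma adjusted p = 0.403). Without RT3 it was -1.31 with an adjusted p of 0.0252, in a setting where 27.6% of all features passed as lower. Ppara was at 0.30, 0.13 and 0.69 TPM in the controls and at 0.19, 0.04 and 0.13 TPM after radiotherapy, so Ppard was the more abundant of the pair in each library. With no filter on low values Ppara had a log2 change of -0.28 (SE 0.15), and its groups overlapped.

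Nrf1 showed the same split as Ppard. It was at 13.4, 12.9 and 8.97 TPM in the controls and at 3.79, 2.76 and 9.74 TPM in RT1, RT2 and RT3. Replicate 3 lay above the lowest control library, and replicates 1 and 2 lay under it by more than the SD of the controls (2.41 TPM). The log2 change was -1.12 (SE 0.43, limma adjusted p = 0.332), and -1.57 with an adjusted p of 0.0144 without RT3. Without that library 27.6% of all features passed as lower. By rank within its library, a measure added after the data were seen, Nrf1 stood at or above 61.9%, 63.3% and 56.7% of tested features in control and 45.1%, 38.2% and 55.6% after radiotherapy. It was the only 1 of the 8 tested genes whose ranks did not overlap between the groups, with RT3 just under CT3. The share of all features without overlap by rank was not computed, so this count is not a result about the set. With median-of-ratios scaling Nrf1 overlapped, at 8.07 in CT3 and 8.51 in RT3. Nrf1 and Ppard had close profiles over the 6 libraries, with a root mean square difference of 0.18 between their centred log2 values, against 0.93 between Nrf1 and Esrra.

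Tfam, the packaging and transcription factor of mitochondrial DNA, lay lower in each radiotherapy library. It was at 16.6, 11.6 and 15.6 TPM in the controls and at 8.80, 8.98 and 8.40 TPM after radiotherapy, or 14.6 ± 2.67 and 8.73 ± 0.297 TPM (SD, n = 3 per group). The groups did not overlap, and the radiotherapy libraries were alike. Its log2 change was -0.67 (SE 0.25, limma adjusted p = 0.332), or -0.31 relative to the median of all features. With median-of-ratios scaling the values were 12.4, 10.8 and 14.0 against 11.3, 12.4 and 7.34, which overlap, and the log2 change was -0.27.

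Mfn2 was the most abundant gene of the set. It was at 64.8, 46.7 and 42.2 TPM in the controls and at 34.6, 28.0 and 29.6 TPM after radiotherapy, with no overlap and a log2 change of -0.70 (SE 0.28, limma adjusted p = 0.335). Scaled by median of ratios it stood at 48.5, 43.8 and 37.9 against 44.4, 38.6 and 25.8, which overlap, at a log2 change of -0.28. Mfn1, the other outer membrane mitofusin, differed less, at 49.8, 42.6 and 43.7 TPM in the controls and at 41.4, 32.3 and 36.1 TPM after radiotherapy. The ratio of Mfn2 to Mfn1 was 1.30, 1.10 and 0.964 in control and 0.836, 0.866 and 0.819 in the radiotherapy libraries. Those ratios do not overlap and are unchanged when a library is multiplied by a common factor, in a comparison chosen after the values were seen.

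Opa1, whose start region carries the NRF1 letters shown above, had nearly the profile of Tfam, with a root mean square difference of 0.11, the smallest of the 28 pairs of tested genes. It was at 10.1, 7.49 and 9.15 TPM in the controls and at 4.81, 5.19 and 6.07 TPM after radiotherapy, with no overlap. The log2 change was -0.64 (SE 0.24, limma adjusted p = 0.332). Without RT3 it was -0.72 with an adjusted p of 0.0440, where 27.6% of all features passed as lower. With median-of-ratios scaling the values were 7.55, 7.02 and 8.23 against 6.17, 7.14 and 5.30, which overlap, and the log2 change was -0.26. Oma1, a protease that cuts OPA1, was at 8.43 to 8.94 TPM in the controls and at 4.86 to 6.14 TPM after radiotherapy. The ratio of Opa1 to Oma1 overlapped between the groups, at 0.847 to 1.13 and 0.783 to 1.25.

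Over the set, 0 of the 8 tested genes passed limma's test across all features, beside 0.0586% of all tested features. At an unadjusted p under 0.05, 5 of the 8 were lower and 0 higher, beside 13.3% and 1.18% of all features. Ppargc1a is 1 of these 5, and since it passed the filter only through the controls, the count and the median below describe the set and support nothing further. Below the lowest control in RT1, RT2 and RT3 alike were 3 of the 8, or 3 of the 10 in all, beside 19.3% of all features. The log2 change was negative in 7 of the 8, beside 78.5%, and their median was -0.68 beside -0.36. With median-of-ratios scaling none (0 of 8) lay lower in all 3 radiotherapy libraries, beside 9.95% of all features, and the median of the 8 was -0.27. Without RT3, Nrf1, Ppard and Opa1 passed as lower, beside 27.6% of all features, so 3 of 8 is close to the background of that setting.

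**Figure D3:**
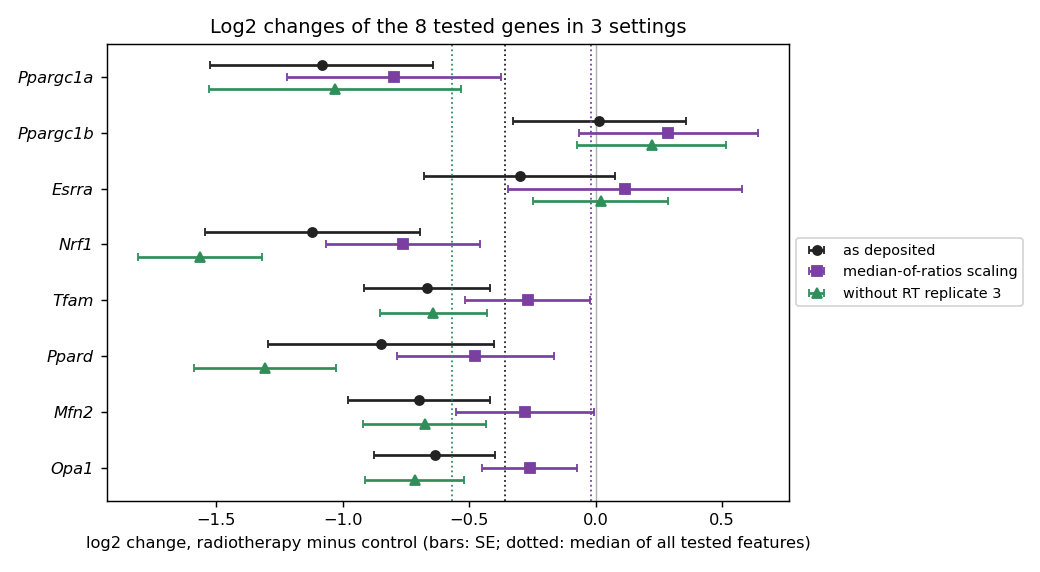
Log2 change (radiotherapy minus control, x axis) of the 8 tested genes as deposited (circles), with median-of-ratios scaling (squares) and without RT3 (triangles), with bars for the SE and dotted lines for the median of all tested features in each setting. Ppargc1a, Nrf1 and Ppard lie furthest below the dotted lines, Tfam, Mfn2 and Opa1 less far below them, and Ppargc1b and Esrra above them, Esrra by only 0.06 as deposited.

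Regulators and partners of PGC-1 formed the first of 4 wider lists. Of 30 genes tested, 0 passed over all features, 6 were lower and 0 higher at an unadjusted p under 0.05, and 7 lay lower and 0 higher in all 3 radiotherapy libraries, with a median log2 change of -0.52. Over all features 13.3% were lower at that p, 19.3% lay lower in all 3 and the median was -0.36, so 7 of 30 is near the background. Lpin1, which encodes lipin 1, a phosphatase that also acts as a coactivator with PGC-1α, was at 87.1, 61.9 and 60.9 TPM in the controls and at 14.6, 13.5 and 40.3 TPM after radiotherapy. Prkaa2, the main catalytic AMPK subunit of muscle and an activator of PGC-1α, was at 32.8, 17.4 and 21.5 TPM and at 6.56, 5.04 and 15.9 TPM. Each radiotherapy library lay under every control library for both genes, with RT3 nearest to the controls. Their log2 changes were -1.73 (SE 0.45) and -1.39 (SE 0.45), and they also did not overlap after median-of-ratios scaling.

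Flcn, folliculin, whose loss in muscle is known to raise PGC-1α, was at 15.4 to 20.8 TPM in the controls and at 4.57 to 13.7 TPM after radiotherapy. Hdac5, a histone deacetylase that represses MEF2 on the Ppargc1a gene, was at 39.4 to 53.3 and 21.3 to 30.4 TPM. Neither overlapped between the groups as deposited, and with median-of-ratios scaling Hdac5 overlapped and Flcn did not. In that setting 5 of the 30 lay lower and 0 higher in all 3 radiotherapy libraries, beside 9.95% and 6.94% of all features. Other genes of the list, named after their values were seen, ran apart in RT3. Perm1, a muscle regulator induced by PGC-1 and ERR, was at 17.3, 11.7 and 16.7 TPM in the controls and at 17.5, 10.2 and 1.78 TPM in RT1, RT2 and RT3. Pprc1, the third coactivator of the PGC-1 family, was at 4.71 to 6.52 TPM in the controls and at 2.87, 3.31 and 11.8 TPM. Prkag3, an AMPK subunit of fast glycolytic fibres, was at 10.4 to 18.0 TPM in the controls and at 59.3, 31.7 and 2.64 TPM. Perm1 and Prkag3 were thus lowest in RT3 and Pprc1 highest in it. Without that library 15 of the 30 passed as lower and 2, Mef2c and Prkag3, as higher, beside 27.6% and 1.98% of all features.

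Transcription and upkeep of mitochondrial DNA made up the next list, of which 18 of 20 genes were tested. None passed over all features (0 of 18), 4 were lower and 0 higher at an unadjusted p under 0.05, and 6 lay lower and 0 higher in all 3 radiotherapy libraries, beside 13.3% lower by p and 19.3% lower in all 3 over all features. The median log2 change was -0.46, beside -0.36. Tfb2m, which melts the mitochondrial promoter together with TFAM, was at 23.1, 24.1 and 22.6 TPM in the controls and at 9.34, 9.27 and 17.9 TPM after radiotherapy. Its paralogue Tfb1m, a ribosomal RNA methylase, was at 4.21, 6.57 and 4.46 TPM and at 3.13, 2.40 and 2.61 TPM. Lrpprc, which stabilises mitochondrial messengers, was at 10.2 to 12.9 and 5.71 to 8.08 TPM, and Mgme1, a mitochondrial exonuclease, at 6.03 to 7.10 and 3.50 to 4.10 TPM. As deposited the groups did not overlap for any of these 4, which were named for the smallest unadjusted p of the list. With median-of-ratios scaling Tfb1m overlapped. In that setting 3 of the 18 lay lower and 1 higher in all 3 radiotherapy libraries, beside 9.95% and 6.94% of all features. Polrmt, the mitochondrial RNA polymerase, named after its values were seen, differed little, at 17.8 to 39.3 and 21.0 to 28.7 TPM, and Twnk, the helicase Twinkle, was at 7.73 to 8.96 and 7.70 to 9.68 TPM.

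Fusion, fission and cristae genes held the most members without overlap. Of 24 tested, 13 lay lower and 0 higher in all 3 radiotherapy libraries, beside 19.3% and 1.73% of all features, while 0 passed over all features and 6 were lower at an unadjusted p under 0.05, beside 13.3%. Their median log2 change was -0.46, beside -0.36. Slc25a46, an outer membrane protein that binds the fusion machinery, was at 11.6, 8.13 and 10.6 TPM in the controls and at 3.76, 4.34 and 6.80 TPM after radiotherapy. Micos13, a cristae junction subunit, was at 157, 165 and 171 TPM and at 108, 99.1 and 82.4 TPM. Yme1l1, the other protease that cuts OPA1, was at 10.3 to 11.3 and 4.57 to 8.05 TPM, and Mief2, a receptor for the fission motor, at 32.1 to 39.3 and 19.6 to 24.9 TPM. The fission motor itself, Dnm1l, and Fis1, an outer membrane fission protein, both named after their values were seen, overlapped between the groups, at 10.8 to 12.4 and 10.3 to 12.9 TPM and at 169 to 247 and 172 to 254 TPM. With median-of-ratios scaling the 13 became 4, namely Slc25a46, Mff, Yme1l1 and Immt, beside 9.95% of all features, and Dnm1l alone lay higher in all 3, beside 6.94%.

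Known targets of PGC-1, the ERRs and the PPARs did not move as 1 block. Of 25 tested, 0 passed over all features, 5 were lower and 0 higher at an unadjusted p under 0.05, and 8 lay lower and 0 higher in all 3 radiotherapy libraries, beside 13.3% lower by p and 19.3% lower in all 3 over all features. The median log2 change was -0.36, the same as that of all features. Cpt1b, the muscle enzyme that lets fatty acids into mitochondria, had even levels within each group, at 94.6, 96.9 and 91.9 TPM in the controls and at 46.3, 40.6 and 38.6 TPM after radiotherapy. Its log2 change was -1.16 (SE 0.24, limma adjusted p = 0.238), and the groups stayed apart with median-of-ratios scaling. Sdha, a subunit of succinate dehydrogenase, was at 140, 112 and 149 TPM and at 68.9, 67.3 and 77.0 TPM. Acadm, the medium-chain acyl-CoA dehydrogenase, was at 65.7 to 95.2 and 31.4 to 50.2 TPM, and Cd36, a fatty acid importer, at 41.6 to 100.4 and 17.9 to 41.0 TPM. These 4 did not overlap as deposited, although Cd36 came close, and Acadm overlapped with median-of-ratios scaling. In that setting 4 of the 25 lay lower and 1 higher in all 3 radiotherapy libraries, beside 9.95% and 6.94% of all features.

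Respiratory chain and ATP synthase genes of the same list, chosen for mention with values known, split between lower and overlapping. Besides Sdha, Cox4i1, a cytochrome c oxidase subunit, lay lower in all 3 radiotherapy libraries, at 1560 to 1864 and 1234 to 1478 TPM, as did Uqcrc2, a complex III subunit, at 143 to 164 and 94.4 to 122 TPM. Over all features 19.3% did so. The log2 changes of Cox4i1 and Uqcrc2 were -0.27 and -0.47, beside a median of -0.36 over all features. With median-of-ratios scaling both overlapped between the groups and Sdha did not. The other 4, Cycs, Cox5b, Atp5b and Ndufs1, overlapped between the groups. Cycs, cytochrome c, was at 73.7 to 97.8 TPM in the controls and at 41.5 to 89.7 TPM after radiotherapy, and Atp5b, an ATP synthase subunit, at 2435 to 2463 and 1727 to 2730 TPM, both lowest in RT3. Mb, myoglobin, was at 1067, 503 and 2202 TPM in the controls and at 2464, 2228 and 564 TPM after radiotherapy, low in the same pair of libraries as Esrra. Angptl4, a PPAR target that blocks lipoprotein lipase, was at 0.53 to 2.34 TPM in the controls and at 1.43, 3.75 and 34.1 TPM, and Pdk4, which shuts pyruvate dehydrogenase, at 81.7 to 149.8 TPM and at 8.60, 84.8 and 356 TPM. Both were highest in RT3.

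**Figure D4:**
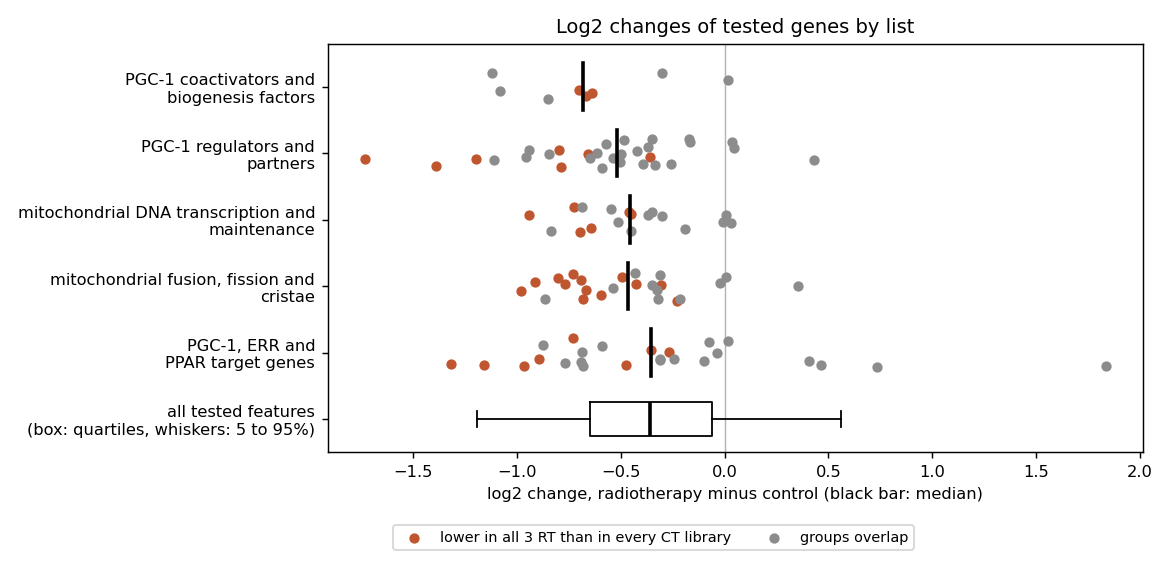
Log2 change (radiotherapy minus control, x axis) of each tested gene of the set and of 4 wider lists, with black bars for medians, orange points for genes lower in every radiotherapy library than in any control library, and a box for all 11938 tested features. The list medians lie between -0.68 and -0.36, beside -0.36 for all features, and the fusion, fission and cristae list holds 13 orange points of 24.

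The features with the profile closest to Ppargc1a over the 6 libraries were Atrx, Appl2, Malt1, Zfp445 and Gm49417, with root mean square differences of 0.14 to 0.20 between centred log2 values, against a median of 0.77 over all tested features. Atrx, a chromatin remodeller, was at 5.19, 1.83 and 6.27 TPM in the controls and at 1.76, 1.97 and 1.47 TPM after radiotherapy. Appl2, an endosomal adaptor protein, was at 26.7, 14.2 and 42.9 TPM and at 10.4, 11.3 and 12.4 TPM. These features were chosen by their likeness to Ppargc1a over the same 6 libraries. Their low values in CT2 and in the 3 radiotherapy libraries follow from that choice.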

How the data were processed

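RNA-seq of gastrocnemius was analysed from the TPM, transcript levels scaled for length and library total, that the authors deposited. Of software, HISAT2, StringTie and RSEM are named in the submitters' processing notes without role or version, with mm9 as the build. The annotation used is not stated in the labels or header. Each library sums to 1000000 TPM, and without read counts the depth of a library is unknown. Groups and replicate numbers come from the labels.

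Of 55995 features, the 11938 averaging 1 TPM or more over 6 libraries were tested on log2(TPM + 1) with limma 3.58.1 in R 4.3.3 (empirical Bayes with a trend, two-sided, no covariates). P-values were Benjamini-Hochberg adjusted over all tested features, with a threshold of 0.05. Errors are SD over 3 libraries, and fold changes on this scale understate the change of low genes. The fit was tested on simulated data.

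The genes and lists were chosen with earlier results of these data known. Named were all 10 genes, of each list the 4 genes with the smallest unadjusted p, the 5 features closest to Ppargc1a by root mean square difference of centred log2 values, and genes said to be named after their values were seen. Trim63 and 3 others, Fbxo32, Mt1 and Lcn2, were read for RT3 (radiotherapy replicate 3). Marker lists of 9 cell types were summed. Start regions are RefSeq's, from GRCm38.p6. They were used for their letters only and not matched to the data's build. Same-numbered libraries did not deviate together, so no block was used. Alternatives were other pseudocounts, filters, scalings, no trend, a replicate block and leaving out each library. Figures were drawn with matplotlib 3.10.9.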

Additional observations from a re-analysis of the deposited data

How the results depend on the processing

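No setting other than leaving out radiotherapy replicate 3 brought a gene of the set or of the 4 wider lists past the threshold in limma's test. Without that library 3 of the set and 38 of the wider lists passed, beside 236 higher and 3298 lower of all 11938 features. Over all features, leaving out 1 library at a time gave 0 to 236 higher and 0 to 3298 lower calls, against 5 and 2 as reported, with 0 to 8 and 0 to 12 where radiotherapy replicate 3 was kept. Calls higher and lower were 0 and 0 with no filter, 3 and 1 with median-of-ratios scaling and with quantile normalization, 5 and 5 with a pseudocount of 0.1, and 5 and 4 after rescaling without mitochondrial and the 20 most abundant features. Lower calls were 1 with a filter at a mean of 5 TPM.

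The 3 genes of the set that were lower in every radiotherapy library became 0 with median-of-ratios scaling, 1 with quantile normalization, 1 after rescaling, 1 by rank within library, and 3 to 5 when 1 library was left out (5 without control replicate 2 or radiotherapy replicate 3). In the wider lists the same counts, with 1 library left out, ran from 8 to 23 for regulators (11 and 12 without control replicates 2 and 3), 6 to 13 for mitochondrial DNA genes, 13 to 20 for fusion, fission and cristae genes and 8 to 11 for target genes, each highest without radiotherapy replicate 3 except the last, which was highest without control replicate 2. With median-of-ratios scaling and with quantile normalization they were 5 and 6 for regulators, 3 and 3 for mitochondrial DNA, 4 and 4 for fusion and 4 and 2 for target genes. After rescaling they were 8 for regulators, 6 for mitochondrial DNA, 7 for fusion and 5 for target genes. The share over all features was 19.3% as reported and 9.95% with median-of-ratios scaling, and was not computed for the other settings. Leaving out a library makes non-overlap easier for any gene. Without radiotherapy replicate 3, 82.8% of all features had a negative log2 change, with a median of -0.57. The counts of those settings are therefore not results about the set or the lists.

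With 1 library left out the log2 change of Ppargc1b ran from -0.22 to 0.22 and that of Esrra from -0.54 to 0.020. The sign turned for Ppargc1b without control replicate 2 (-0.22) or radiotherapy replicate 1 or 2 (both -0.09), and for Esrra with median-of-ratios scaling (0.12), quantile normalization (0.11) and without radiotherapy replicate 3 (0.020). The cause was not tested. The replicate number did not pair the libraries, with correlations of -0.05, -0.11 and -0.20 between the deviations of same-numbered libraries. As a replicate block it left 4 higher and 0 lower calls over all features and 0 in the set. With no depth, detection limits cannot be given for Esrrg and Ppara.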
